A study of Mus musculus with 3 samples.

Results

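The 32 genes described here are read in dividing cells and encode the machinery that copies DNA and then separates the chromosomes. They were taken by name from the 27998 genes measured in each of 3 single-cell libraries of mouse sciatic nerve macrophages. The replication set of 12 genes held the helicase subunits Mcm2, Mcm3, Mcm5, Mcm6 and Mcm7, the licensing factor Cdc6, the sliding clamp Pcna, the nucleotide enzymes Tyms, Rrm1 and Rrm2, and the chromatin factors Uhrf1 and Hells. The mitosis set of 17 genes held Mki67, Top2a, Birc5, Ccna2, Ccnb1, Ccnb2, Cdk1, Ube2c, Cenpf, Tpx2, Nusap1, Prc1, Cdca3, Cdca8, Hmmr, Aurkb and Kif11. The remaining 3 genes, Tk1, 2810417H13Rik (Pclaf in RefSeq) and Stmn1, were kept outside both sets.

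All mice were of the inbred strain C57BL/6. The 3 libraries hold macrophages of uninjured sciatic nerve (steady state), of nerve taken 1 day after a crush injury and of nerve taken 5 days after it. The sources used here do not give the animals' age or sex, how many went into a library, or how the macrophages were isolated. After filtering, 728, 2793 and 2059 cells were kept from steady state, day 1 and day 5. They carried 1656510, 7963091 and 5524496 UMIs (unique molecular identifiers, which mark a captured RNA molecule so that its copies are counted once), and the median cell had 2238.5, 2555 and 2473. Cells with UMIs of at least 3 of 11 macrophage markers numbered 719, 2471 and 1996. The pairs of libraries shared 2, 3 and 11 cell barcodes. Each time point is a single library without replicates, no test could be made, and every difference is one between these libraries.

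A cell that prepares to divide first loads the MCM helicase onto DNA and then, in S phase, copies its DNA with the help of the Pcna clamp and a supply of nucleotides. In G2 and M phase it makes the B-type cyclins that activate Cdk1, condenses and segregates its chromosomes on a spindle, and degrades its cyclins through the anaphase-promoting complex. Transcription of many S phase genes is known to pass through E2F sites. That of many G2 and M phase genes is known to pass through a CHR element and nearby CCAAT boxes, bound by the DREAM and MuvB complexes and by NF-Y. Macrophages in tissues are known to renew partly by local division and partly from blood monocytes.

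The promoters of both sets carried these letters in different proportions. In the RefSeq table of promoters (build GRCm38.p6, 250 bases before to 50 after each start), all 12 replication genes, 14 of the 17 mitosis genes and 2 of the other 3 were found. Tpx2, Ccna2, Aurkb and Stmn1 were missing. An E2F form, TTGGCGC or TTCCCGC on either strand, stood in 8 of 12 replication genes and 3 of 14 mitosis genes, against 7.79% of the 27025 genes in the table. The CHR letters TTTGAA on either strand stood in 1 of 12 replication genes, Mcm2, and 11 of 14 mitosis genes, against 20.2% of the table. The CCAAT box on either strand stood in 9 of 12 and 12 of 14, against 41.1%. The first E2F form and the CCAAT box can share letters, and a match describes the letters of this window, not a bound site.

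The 6 stretches below show what this looks like in the 200 bases before the start, 5′ to 3′ on the gene's strand, with matches to any of these motifs on either strand in capitals. They belong to the 3 genes of each set with the most UMIs over the libraries among those with an E2F form (replication) or the CHR letters (mitosis) in this stretch. Mcm6 lies at chr1:128359706-128359905 (minus strand), with 2 E2F matches and 2 CCAAT boxes and no CHR match. Rrm1 lies at chr7:102441495-102441694 (plus strand) and Mcm7 at chr5:138171884-138172083 (minus strand), each with 1 E2F match and 2 CCAAT boxes.
Mcm6: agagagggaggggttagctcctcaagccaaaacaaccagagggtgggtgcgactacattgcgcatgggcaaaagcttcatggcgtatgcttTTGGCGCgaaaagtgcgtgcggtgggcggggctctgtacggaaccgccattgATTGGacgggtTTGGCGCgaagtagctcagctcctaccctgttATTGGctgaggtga
Rrm1: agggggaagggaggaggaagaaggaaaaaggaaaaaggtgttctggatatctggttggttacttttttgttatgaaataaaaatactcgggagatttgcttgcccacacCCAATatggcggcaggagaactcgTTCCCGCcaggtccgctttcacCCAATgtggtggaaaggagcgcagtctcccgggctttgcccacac
Mcm7: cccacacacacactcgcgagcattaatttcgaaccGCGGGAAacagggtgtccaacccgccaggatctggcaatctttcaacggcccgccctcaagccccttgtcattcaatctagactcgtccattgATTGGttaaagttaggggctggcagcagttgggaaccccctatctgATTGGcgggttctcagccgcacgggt

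Among the mitosis genes, Ube2c lies at chr2:164769729-164769928 (plus strand), with 1 CHR match and 5 CCAAT boxes, of which a pair overlap. Cdk1 lies at chr10:69352913-69353112 (minus strand), with 2 CHR matches, 2 CCAAT boxes and 1 E2F match. Top2a lies at chr11:99024190-99024389 (minus strand), with 2 CHR matches and 5 CCAAT boxes.
Ube2c: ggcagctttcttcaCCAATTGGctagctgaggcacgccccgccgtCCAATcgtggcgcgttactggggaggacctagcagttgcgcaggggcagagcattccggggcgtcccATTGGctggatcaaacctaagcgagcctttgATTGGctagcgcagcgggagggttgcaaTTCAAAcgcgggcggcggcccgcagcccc
Cdk1: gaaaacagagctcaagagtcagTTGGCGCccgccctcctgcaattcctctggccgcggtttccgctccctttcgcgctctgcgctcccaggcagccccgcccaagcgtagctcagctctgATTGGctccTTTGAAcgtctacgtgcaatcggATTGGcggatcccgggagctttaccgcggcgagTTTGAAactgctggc
Top2a: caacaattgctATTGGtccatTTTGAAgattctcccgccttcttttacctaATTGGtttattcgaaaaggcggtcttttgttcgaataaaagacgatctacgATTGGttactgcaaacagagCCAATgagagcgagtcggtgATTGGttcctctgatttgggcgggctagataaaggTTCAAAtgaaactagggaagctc

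Levels are given as CPM, the UMIs of a gene per 1000000 UMIs of the library, and the 95% intervals beside them reflect the counting of UMIs alone. Because the UMIs of a gene come from few cells, the spread between cells can be wider than these intervals. The summed level of the 12 replication genes was 188 CPM at steady state, 113 CPM on day 1 and 185 CPM on day 5. That of the 17 mitosis genes was 164, 33.2 and 175 CPM. Both sums were thus lower in the day 1 library than in the other 2, the mitosis sum by the larger ratio. The replication sum was 1.66-fold lower on day 1 than at steady state (1.45 to 1.89) and the mitosis sum 4.95-fold lower (4.17 to 5.89). From day 1 to day 5 the replication sum was 1.63-fold higher (1.49 to 1.79) and the mitosis sum 5.27-fold higher (4.59 to 6.06).

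Between day 5 and steady state the sums were close. The ratio was 0.985 for the replication genes (0.867 to 1.12) and 1.06 for the mitosis genes (0.929 to 1.22), and both intervals hold 1. The mitosis ratio did not keep this under every setting. It was 1.17 (1.01 to 1.36) when the 1 cell with the most mitosis UMIs was left out of each library, and 0.880 (0.799 to 0.970) with Stmn1 counted as a mitosis gene. The cell left out, chosen by these UMIs, held 40 of 272 at steady state and 56 of 965 on day 5, a larger share at steady state. Set against each other within a library, there were 1.14 replication UMIs per mitosis UMI at steady state (0.969 to 1.35), 3.41 on day 1 (2.97 to 3.93) and 1.06 on day 5 (0.969 to 1.16). Pcna supplied 90 of 311, 422 of 901 and 334 of 1022 replication UMIs. Without it there were 0.813, 1.81 and 0.713 replication UMIs per mitosis UMI, again with day 1 the highest.

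**Figure D1:**
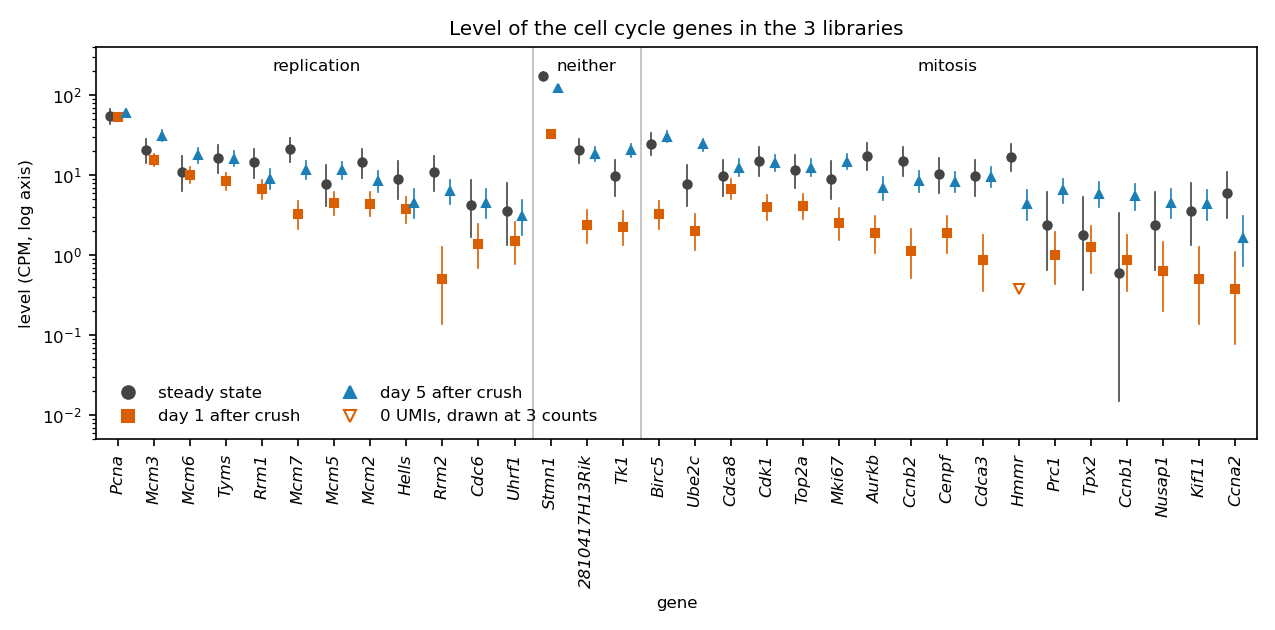
Level of each gene in CPM on a log axis, with points for the steady-state, day 1 and day 5 libraries, 95% counting intervals as bars, and genes ordered within each set by their UMIs over the libraries. The day 1 squares lie below the steady-state circles for every gene except Ccnb1, closest for Pcna (53.0 against 54.3 CPM) and farthest for Hmmr, whose 0 UMIs are drawn at 3 counts.

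The share of cells with monocyte markers also differed between the libraries, and was highest on day 1, where both sums were lowest. Cells with UMIs of at least 3 of 9 monocyte markers were 8 of 728 at steady state, 1292 of 2793 (46.3%) on day 1 and 373 of 2059 (18.1%) on day 5. Without these cells the mitosis ratio of day 1 to steady state was 0.356 (0.294 to 0.429), in place of 0.202, and that of day 5 to day 1 was 3.10 (2.64 to 3.65). The corresponding replication ratios were 0.752 and 1.33, and day 1 then had 2.39 replication UMIs per mitosis UMI. The day 1 library was lowest in both sums without these cells too, by smaller ratios. None of the 9 day 1 cells with at least 3 mitosis genes was among those left out, so the day 1 mitosis level had to rise. The part of the monocyte share in the sums was not tested. Leaving these cells out was an alternative chosen after seeing the data.

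Over all 32 genes, whatever their level, 31 were lower on day 1 than at steady state (Ccnb1 was the exception, with 1 UMI at steady state), 32 were higher on day 5 than on day 1, and 16 were higher and 16 lower on day 5 than at steady state. Among all genes with a UMI in either library, 5968 of 13607 were lower on day 1 than at steady state, and 6740 of 14052 were higher on day 5 than on day 1. For day 5 against steady state, 7287 of 13390 such genes were higher and 6103 lower. 17 of the 32 had at least 10 CPM in the steady-state or the day 1 library, and 13 of these were at least 2-fold lower on day 1, against 14.8% of the 7036 genes past that minimum. None was at least 2-fold higher, against 16.4%. A gene that reaches 10 CPM in only 1 library enters this count through the library where it is high, so the count describes these 17 and not all 32. The median log2 ratio was -2.43 over the 17 and 0.11 over all 7036 genes.

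For day 5 over day 1, 15 genes passed the minimum and 11 were at least 2-fold higher, against 4.91% of 6655 genes. None was at least 2-fold lower, against 5.48%. Their median log2 ratio was 1.83, and that of all genes -0.11. Of the 11, only Mcm3 (15.6 CPM) and Stmn1 (32.7 CPM) also reached 10 CPM on day 1. The others entered through day 5, where they are high, so the count and median describe these 15 genes only. For day 5 over steady state, 22 passed the minimum. Ube2c and Tk1 were at least 2-fold higher (9.85% of 6876 genes were) and Hmmr and Aurkb at least 2-fold lower (11.1%), with a median log2 ratio of -0.05 against 0.01. The 3 comparisons share libraries and are not independent of each other. Scaling by the median ratio of genes in place of the total would take 0.12 from each log2 ratio of day 1 to steady state and add 0.11 to each of day 5 to day 1.

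**Figure D2:**
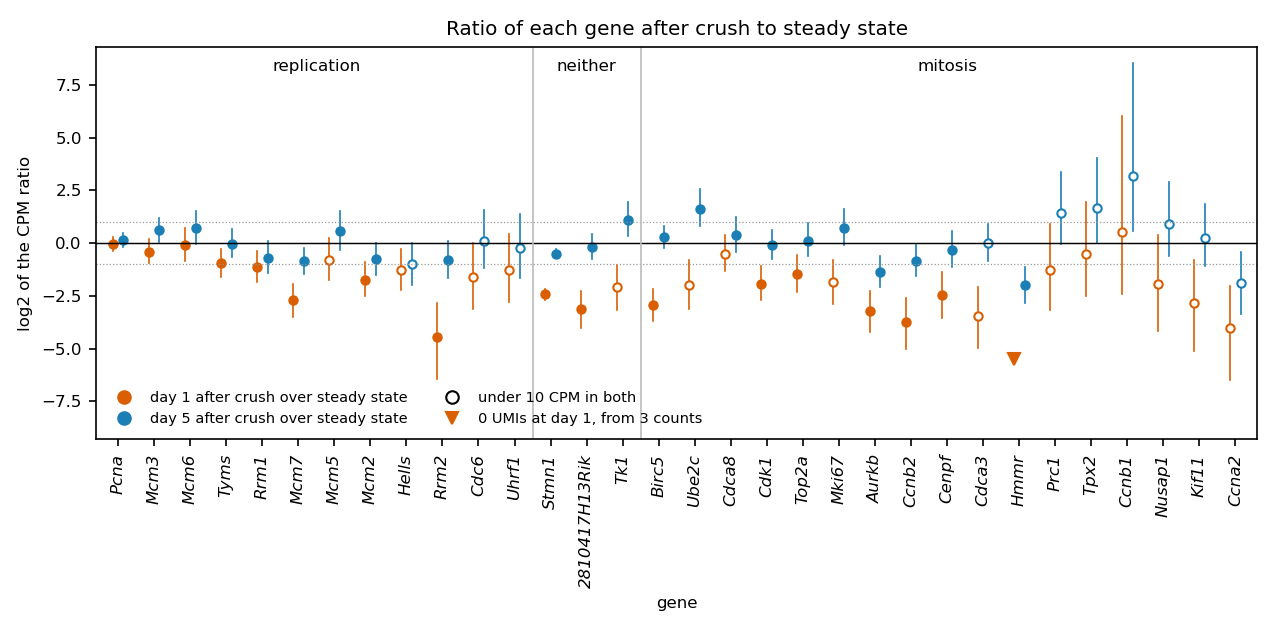
Log2 ratio of each gene's CPM on day 1 and on day 5 to steady state, with 95% counting intervals as bars, dotted lines at 2-fold, and open points for genes under 10 CPM in both libraries. The day 1 points of filled genes run from -0.04 for Pcna to the bound of -5.49 for Hmmr, while the day 5 points lie on both sides of 0.

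The replication genes ranged from Pcna, at about the same level in each library, to Rrm2, which was far lower on day 1. Pcna, the clamp that holds the polymerases on DNA, had 90 UMIs (54.3 CPM) at steady state, 422 (53.0 CPM) on day 1 and 334 (60.5 CPM) on day 5. Its ratio of day 1 to steady state was 0.975 (0.775 to 1.24), and that of day 5 to day 1 was 1.14 (0.985 to 1.32). Pcna had the highest ratio of day 1 to steady state among the 17 genes and the lowest of day 5 to day 1 among the 15. It had a UMI in 60 of 728 cells (8.24%) at steady state, 301 of 2793 (10.8%) on day 1 and 239 of 2059 (11.6%) on day 5.

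The helicase subunits, which work as 1 complex, had unlike ratios. Mcm3 had 34 UMIs (20.5 CPM) at steady state, 124 (15.6 CPM) on day 1 and 173 (31.3 CPM) on day 5. Mcm6 had 18 (10.9 CPM), 81 (10.2 CPM) and 98 (17.7 CPM). Mcm7 had 35 (21.1 CPM), 26 (3.27 CPM) and 65 (11.8 CPM). On day 1 Mcm7 was therefore 6.47-fold lower than at steady state (3.79 to 11.2), whereas Mcm6 had a ratio of 0.936 (0.557 to 1.66) and Mcm3 of 0.759 (0.516 to 1.14), both with 1 inside the interval. Mcm2 (24, 35 and 47 UMIs) was 3.30-fold lower, and Mcm5 (13, 36 and 64 UMIs) 1.74-fold lower with 1 inside its interval. On day 5 Mcm3 was 1.53-fold (1.05 to 2.27) above steady state and Mcm7 1.80-fold (1.16 to 2.75) below it. Cdc6, which loads the helicase, had 7, 11 and 25 UMIs, too few for more than their intervals: its ratio of day 1 to steady state was 0.327 (0.116 to 0.995).

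The enzymes of nucleotide supply also differed from each other. Tyms, which makes thymidylate, had 27 UMIs (16.3 CPM), 67 (8.41 CPM) and 89 (16.1 CPM) and was 1.94-fold lower on day 1 than at steady state (1.19 to 3.07). Rrm2, the subunit of ribonucleotide reductase that limits its activity to S phase, had 18 UMIs (10.9 CPM), 4 (0.502 CPM) and 35 (6.34 CPM), a 21.6-fold difference between steady state and day 1 (7.13 to 87.9). Rrm1, the other subunit, had 24 (14.5 CPM), 53 (6.66 CPM) and 50 (9.05 CPM) UMIs and was 2.18-fold lower on day 1 (1.29 to 3.59). The chromatin factors were low in each library. Hells, a remodeler that assists DNA methylation, had 15, 30 and 25 UMIs, and Uhrf1, which brings the maintenance methylase to copied DNA, had 6, 12 and 17. Neither reached 10 CPM.

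The genes kept outside both sets were also lowest on day 1. Tk1, thymidine kinase, had 16 UMIs (9.66 CPM) at steady state, 18 (2.26 CPM) on day 1 and 114 (20.6 CPM) on day 5. 2810417H13Rik, a Pcna-binding protein, had 34 (20.5 CPM), 19 (2.39 CPM) and 101 (18.3 CPM). Stmn1, which destabilises microtubules, had 291 (176 CPM), 260 (32.7 CPM) and 687 (124 CPM). In the day 1 library 2810417H13Rik was 8.60-fold (4.77 to 16.0) and Stmn1 5.38-fold (4.54 to 6.38) below steady state. 1 cell held 28 of the 114 day 5 UMIs of Tk1. Its day 5 to steady state ratio of 2.14 (1.26 to 3.86) was 1.61 without that cell, and 3.41 without the steady-state cell that held 6 of 16.

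Among the mitotic regulators, Birc5 (survivin, of the chromosomal passenger complex) had 41 UMIs (24.8 CPM) at steady state, 26 (3.27 CPM) on day 1 and 168 (30.4 CPM) on day 5. Ube2c, the ubiquitin-conjugating enzyme of the anaphase-promoting complex, had 13 (7.85 CPM), 16 (2.01 CPM) and 134 (24.3 CPM). Cdca8, another passenger subunit, had 16 (9.66 CPM), 54 (6.78 CPM) and 69 (12.5 CPM). Birc5 was 7.58-fold lower on day 1 than at steady state (4.53 to 12.9), while Cdca8 was 1.42-fold lower with 1 inside its interval (0.761 to 2.53). Among the genes past 10 CPM, Ube2c had the highest ratio of day 5 to steady state, 3.09 (1.75 to 5.96), and of day 5 to day 1, 12.1 (7.17 to 21.7). Cdk1, the kinase that drives entry into mitosis, had 25 (15.1 CPM), 32 (4.02 CPM) and 79 (14.3 CPM) UMIs. Cdca3, which triggers mitotic entry, had 16, 7 and 53 UMIs. Aurkb, the passenger kinase, had 29 (17.5 CPM), 15 (1.88 CPM) and 38 (6.88 CPM) and was on day 5 still 2.55-fold (1.51 to 4.24) below steady state.

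The cyclins were sparse. Ccnb2 had 25, 9 and 47 UMIs, Ccnb1 had 1, 7 and 30, and Ccna2 had 10, 3 and 9. Ccnb2 was 13.4-fold lower on day 1 than at steady state (6.03 to 32.5). Without the 1 day 1 cell that held 6 of its 9 UMIs it was 40.0-fold lower, from the 3 UMIs left. Without the steady-state cell that held 7 of 25 it was 9.65-fold lower. Ccnb1 was the gene that ran the other way at day 1, with a ratio of 1.46 whose interval (0.187 to 65.6) reaches far to both sides of 1.

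Among chromosome and spindle proteins, Top2a, which untangles sister DNA, had 19 UMIs (11.5 CPM), 33 (4.14 CPM) and 69 (12.5 CPM). Mki67, the proliferation antigen that coats mitotic chromosomes, had 15 (9.06 CPM), 20 (2.51 CPM) and 82 (14.8 CPM). Both were lowest on day 1, Top2a 2.77-fold (1.49 to 5.01) and Mki67 3.61-fold (1.72 to 7.41) below steady state. Hmmr, a spindle-associated protein, had 28 (16.9 CPM), 0 and 24 (4.34 CPM). Taking 3 counts for the day 1 library, Hmmr was 44.9-fold lower there than at steady state, and at least 34.1-fold by the counting interval. However, 24 of its 28 steady-state UMIs lay in 1 of 2 cells. Without that cell 4 UMIs (2.42 CPM) remained at steady state, against 0.377 CPM for 3 counts on day 1. The ratio of day 5 to steady state was then 1.79 in place of 0.257. Cenpf, a kinetochore protein, rested on 1 cell in the same way, with 16 of 17 steady-state UMIs. Its ratio of day 1 to steady state was 0.184, and 3.11 without that cell. The remaining 4, Tpx2, Nusap1, Prc1 and Kif11, had at most 6 UMIs at steady state and at most 10 on day 1.

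The mitosis UMIs were concentrated in few cells. No UMI of any mitosis gene was found in 678 of 728 steady-state cells, 2682 of 2793 day 1 cells and 1840 of 2059 day 5 cells. Cells with at least 3 of the 17 genes numbered 12 (1.65%, 0.855 to 2.86), 9 (0.322%, 0.147 to 0.611) and 46 (2.23%, 1.64 to 2.97). Near that limit, 4, 8 and 18 cells had exactly 2 of the genes and 2, 2 and 9 exactly 3. A limit of 2 genes would give 2.20%, 0.609% and 3.11%, with day 1 again the lowest. The cells with at least 3 of the genes held 77.9% of the mitosis UMIs at steady state, 44.7% on day 1 and 73.7% on day 5. After each cell was thinned to 1000 UMIs, 6 of 638, 5 of 2496 and 26 of 1777 cells had at least 3 of the genes (0.940%, 0.200% and 1.46%). The day 1 share was the lowest with and without thinning. After thinning, however, the intervals of steady state (0.346 to 2.04) and day 1 (0.0651 to 0.467) overlapped. Separate intervals that overlap neither give an order nor show that there is none, and no interval of the ratio of these shares is given here. The day 5 interval was 0.958 to 2.14. Thinning left out 90, 297 and 282 shallower cells.

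**Figure D3:**
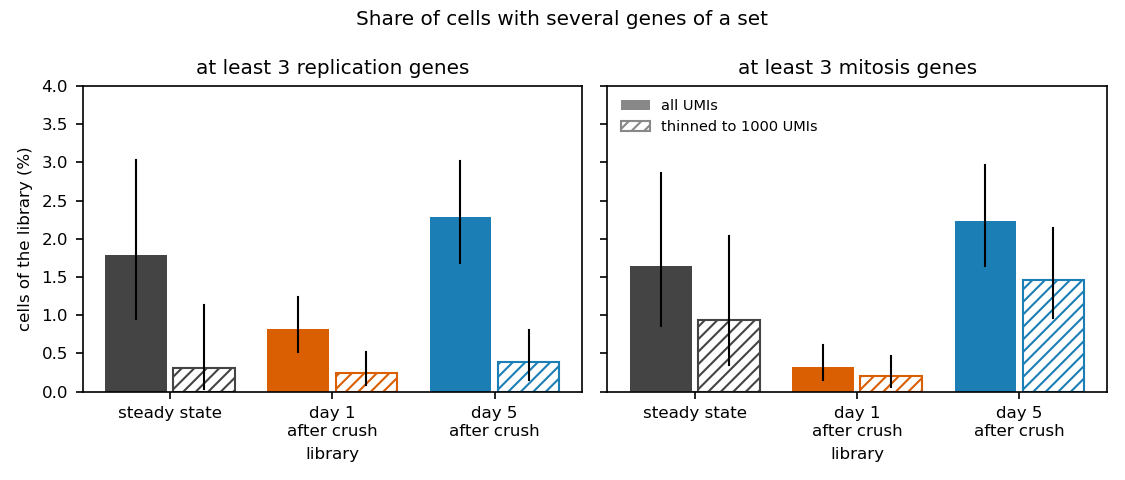
Percent of each library's cells with at least 3 replication genes (left) and at least 3 mitosis genes (right), from all UMIs (filled bars) and after thinning to 1000 UMIs per cell (hatched bars), with exact 95% intervals. For the mitosis genes day 1 is lowest (0.322%) and for the replication genes it is also lowest (0.823%). From all UMIs the replication intervals of steady state and day 1 overlap. After thinning the replication intervals of the 3 libraries overlap, and so do the mitosis intervals of steady state and day 1.

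Within the cells with at least 3 mitosis genes the mitosis level was about the same, with 4065 CPM at steady state, 3884 CPM on day 1 and 3986 CPM on day 5, as far as a range chosen on these genes can show. These cells had a median of 3935, 3594 and 3495 UMIs, against 2219.5, 2523.5 and 2371 in cells with no mitosis gene, so they were deeper. The median cell of the range had 6 mitosis genes at steady state, 4 on day 1 and 6 on day 5, and the highest 11, 12 and 14.

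The single mitosis genes differed in how often they stood alone. On day 5 Birc5 was seen in 36 of the 40 cells that had at least 3 other mitosis genes and in 12 of the 1852 with no other. Ube2c was seen in 25 of 44 and 12 of 1852, and Cdk1 in 18 of 45 and 31 of 1871. On day 1 Cdca8 was seen in 3 of 8 and in 26 of 2708, so 26 of the 32 day 1 cells with Cdca8 had no other mitosis gene. Aurkb at steady state was likewise seen in 5 of 12 and in 12 of 690. A lone UMI can also come from free RNA in the droplet, and its share of these cells was not tested.

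The replication UMIs were spread over more cells. Cells with any replication UMI numbered 134 (18.4%) at steady state, 535 (19.2%) on day 1 and 497 (24.1%) on day 5, against 50, 111 and 219 cells with any mitosis UMI. Cells with at least 3 of the 12 replication genes numbered 13 (1.79%, 0.954 to 3.03), 23 (0.823%, 0.523 to 1.23) and 47 (2.28%, 1.68 to 3.02). They held 35.4%, 16.4% and 31.4% of the replication UMIs. The intervals of steady state and day 1 overlap. After thinning the share was 0.313%, 0.240% and 0.394%, from 2, 6 and 7 cells, and the intervals of all 3 libraries overlap. These intervals alone thus do not order steady state and day 1 at either depth.

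The cells with several replication genes and those with several mitosis genes overlapped in part. Both ranges held 4 cells at steady state, 2 on day 1 and 10 on day 5. The replication range alone held 9, 21 and 37, and the mitosis range alone 8, 7 and 36. 3 of 12, 3 of 9 and 17 of 46 cells of the mitosis range had no replication UMI. Conversely 7 of 13, 18 of 23 and 24 of 47 cells of the replication range had no mitosis UMI. On day 1 the 9 cells of the mitosis range held 2.44% of the replication UMIs, against 17.7% for the 12 steady-state cells and 16.5% for the 46 day 5 cells.

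**Figure D4:**
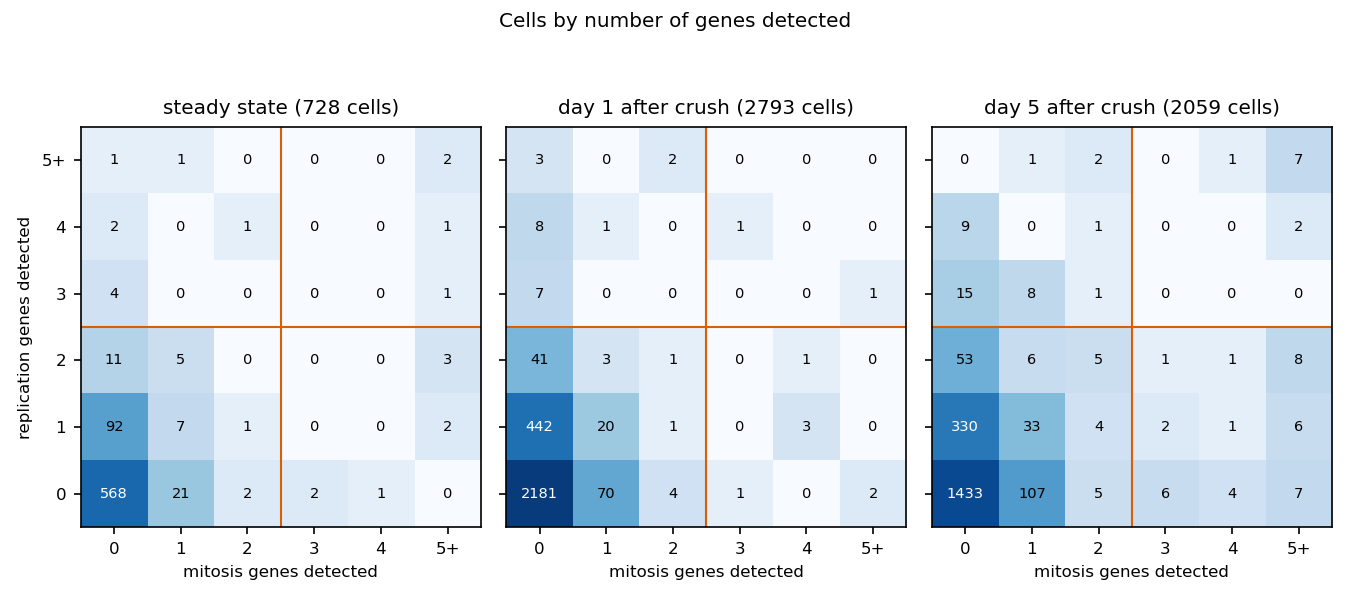
Number of cells by how many replication genes (rows) and mitosis genes (columns) had a UMI, in 1 panel per library, with shading by the log of the count and lines at the limit of 3 genes. The upper right block, cells with at least 3 of each, holds 4, 2 and 10 cells, and the upper left block holds the 9, 21 and 37 cells with several replication genes but fewer than 3 mitosis genes.

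Outside the mitosis range the replication level was also lowest on day 1. In cells with no mitosis gene the 12 genes summed to 141 CPM at steady state (123 to 162), 108 CPM on day 1 (101 to 116) and 145 CPM on day 5 (135 to 156). In cells with 1 or 2 mitosis genes they summed to 436, 168 and 277 CPM. In cells with at least 3 mitosis genes they summed to 1055 CPM (794 to 1373), 724 CPM (454 to 1096) and 947 CPM (810 to 1102). The mitosis range thus had the higher replication level in each library, on a measure that did not choose its cells.

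Which replication genes marked these cells varied. On day 5 Rrm2 had a UMI in 11 of 46 cells of the mitosis range and 5 of 1840 cells with no mitosis gene. Tyms had one in 11 and 30, Pcna in 18 and 186, and Mcm3 in 7 and 87. Rrm2 was thus rare outside the range, while Pcna and Mcm3 were seen in many cells that had no mitosis UMI. Of the genes in neither set, Tk1 had a UMI in 26 and 11, 2810417H13Rik in 25 and 16 and Stmn1 in 42 and 132. Thinned to 1000 UMIs, 43 and 1572 cells were left, and Rrm2 was seen in 3 and 0, Tk1 in 7 and 3, 2810417H13Rik in 14 and 7, Stmn1 in 32 and 61 and Pcna in 5 and 72.

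**Figure D5:**
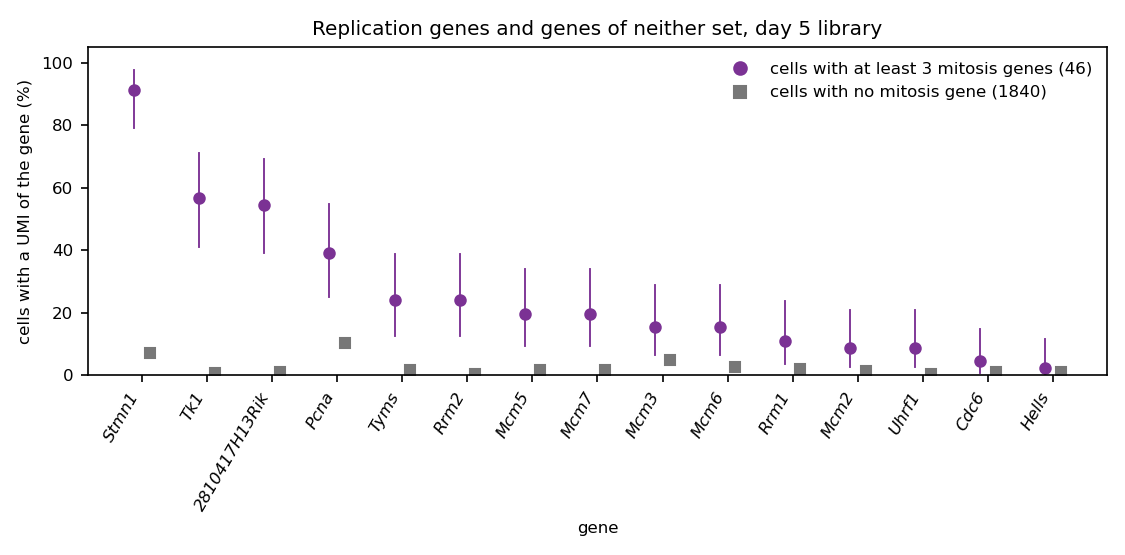
Percent of day 5 cells with a UMI of each replication gene and of Stmn1, Tk1 and 2810417H13Rik, in the 46 cells with at least 3 mitosis genes (circles) and the 1840 with no mitosis gene (squares), with exact 95% intervals, not thinned. Stmn1 (91.3% against 7.17%), Tk1 (56.5% against 0.598%) and 2810417H13Rik (54.3% against 0.870%) stand farthest apart, and the intervals of Cdc6 and Hells overlap.

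The steady-state library showed the same genes in smaller numbers, and the day 1 library only some of them. At steady state 2810417H13Rik had a UMI in 7 of 12 cells of the mitosis range and 0 of 678 cells with no mitosis gene, Tk1 in 5 and 0, and Rrm2 in 6 and 1. Pcna had one in 5 and 46, and Stmn1 in 12 and 49. On day 1 2810417H13Rik was seen in 4 of 9 and 3 of 2682, Stmn1 in 9 and 96, and Pcna in 5 and 282. Mcm3 was seen in 0 of 9 day 1 cells and in 82 of 2682, and with an exact upper limit of 33.6% of the 9 the share of cells with a UMI could not be told apart from that in the others.

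The cells of the mitosis range were checked against markers. UMIs of at least 3 of 11 macrophage markers were found in 10 of 12 at steady state, 9 of 9 on day 1 and 44 of 46 on day 5. The list's summed level in them was 14975, 17509 and 15848 CPM, against 28739, 10734 and 19471 CPM in all cells, with Mertk at 0 in the first 2. At least 3 of 9 monocyte markers were found in 0 of 12, 0 of 9 (an exact upper limit of 33.6%) and 6 of 46 cells. Among day 1 cells with 1 or 2 mitosis genes, 52 of 102 had them. On day 1 the summed monocyte level was 658 CPM in the 9 cells and 3403 CPM in all cells, with Ly6c2, Chil3, Vcan and Ms4a4c among the markers at 0 in the 9.

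Dendritic cell markers moved with the steady-state mitosis cells. At least 3 of 14 were found in 4 of the 12 (33.3%, 9.92 to 65.1), against 7 of 728 cells in all, and in 0 of 9 on day 1 and 2 of 46 on day 5. The list summed to 1937 CPM in the 12 cells and 505 CPM in the library. Napsa and Cd209a were in 4 cells each and Flt3 in 2, while Ccr7, Ccl22, Zbtb46, Xcr1, Itgae and Fscn1 were at 0. Without cells that have at least 3 dendritic markers, the mitosis ratio of day 5 to steady state was 1.36 (1.17 to 1.58) in place of 1.06, so its interval no longer held 1, and that of day 1 to steady state was 0.259. Other lists had at most 12 UMIs in a range. Schwann cell markers summed to 230, 263 and 61.7 CPM in the ranges of steady state, day 1 and day 5, against 318, 56.0 and 64.6 CPM in all cells, with Sox10 and S100b among the markers at 0 in the ranges. The day 1 value, above that of its library, rests on 8 UMIs. On day 5 fibroblast markers were at 50.5 CPM (9 UMIs) against 23.9 CPM and endothelial markers at 28.0 CPM (5 UMIs) against 10.3 CPM, and at steady state B cell markers were at 76.7 CPM (4 UMIs) against 48.3 CPM. The part of these markers in the mitosis levels was not tested. 1 day 5 cell of the range had the T cell genes Cd3d and Cd3g. The lists for NK cells, mast cells and erythroid cells were at 0 in the 3 ranges, and those for neutrophils and fibroblasts in the ranges of steady state and day 1.

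Genes around the cycle that are not among the 32 were counted in 5 lists, at the same 10 CPM minimum and 2-fold limit. Over all genes past that minimum, 14.8% were lower and 16.4% higher on day 1 than at steady state. Of 9 G1 cyclins and kinases, 7 passed for day 1 over steady state, with 3 lower and 0 higher. Cdk4 (86.9, 117 and 91.8 CPM at steady state, day 1 and day 5) and Cdk6 (27.8, 36.4 and 24.6 CPM), the kinases that start the cycle, had the highest ratios, 1.34 and 1.31. Ccnd1, their cyclin partner (76.7, 34.0 and 57.0 CPM), had the lowest, 0.444 (0.358 to 0.552). Of 12 inhibitors of the cycle, 10 passed, with 3 higher and 3 lower. Cdkn1a, the p21 inhibitor, was at 280, 625 and 445 CPM and 2.23-fold higher on day 1 (2.03 to 2.46). Cdkn1b, the p27 inhibitor, was at 9.06, 25.9 and 21.9 CPM and 2.86-fold higher (1.69 to 5.20). Cdkn1c, the p57 inhibitor, was at 32.6, 1.51 and 4.16 CPM, with a ratio of 0.0462 (0.0225 to 0.0875).

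Of 8 transcription factors of the cycle, E2f1 and Lin54, a subunit of DREAM, passed. E2f1 was at 39.2, 10.3 and 20.6 CPM, a ratio of 0.262 (0.187 to 0.369), and Lin54 at 6.64, 10.5 and 9.59 CPM. Of 31 other replication genes 16 passed, with 0 higher and 3 lower. Orc6, of the origin recognition complex, was at 16.3, 20.7 and 15.7 CPM, the flap nuclease gene Fen1 at 13.3, 16.8 and 17.9 CPM, and the histone chaperone gene Asf1b at 22.3, 4.77 and 9.05 CPM. Of 55 other mitosis genes 18 passed, with 1 higher and 8 lower. Lmnb1, a nuclear lamin, was the 1 higher gene (12.1, 74.0 and 32.6 CPM). The histone variant gene H2afz was at 726, 826 and 1123 CPM, and Kif23, a kinesin of cytokinesis, at 10.9, 0.251 and 3.26 CPM, with 2 UMIs on day 1 and a ratio of 0.0231 (0.0026 to 0.0965). The 3 lower of 16 other replication genes lie near the background of 14.8%, while 8 of 18 other mitosis genes were lower.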

How the data were processed

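The authors deposited, for each of 3 libraries, a table of raw UMI counts per gene and cell barcode. Per the labels the libraries are 10x Genomics version 1, and per the submitters' processing notes they were processed with Cell Ranger 2.0.2 on build mm10. The sources used here do not give the annotation, how barcodes were called, or whether doublets were removed. The tables held 731, 2796 and 2059 barcodes, the numbers of cells per the labels. A further deposited table that pools the 3 libraries was not used.

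A barcode was kept where 200 or more genes had a UMI and no more than 10% of UMIs were mitochondrial, which removed 6 of 5586. No doublet caller was run. UMIs were summed per library and expressed as CPM, counting every gene of the table. CPM have exact Poisson intervals, ratios of CPM exact conditional binomial intervals, and shares of cells exact Clopper-Pearson intervals, all at 95% (Python 3.11.15, SciPy 1.17.1). With 1 library per time point no p-value was computed. A count of 0 was taken as 3 counts for a bound, which is 1.81, 0.377 and 0.543 CPM at steady state, day 1 and day 5. The ratio step was tested on simulated data.

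Full values are given for the 3 genes of each role with the most UMIs, and for the highest and lowest ratio of each comparison past 10 CPM. For each list of other cycle genes they are given for the 2 highest and the 1 lowest ratio of day 1 to steady state. Other genes named with values were chosen after seeing them. The members, lists and markers were chosen with earlier results of these data known. Alternatives tried were the scaling, the CPM minimum, the number of genes per cell, thinning, the make-up of the sets, and leaving out deep cells or cells with dendritic cell markers. Leaving out cells with monocyte markers, or the 1 cell per library with the most mitosis UMIs, was added after seeing the data.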

Additional observations from a re-analysis of the deposited data

How the results depend on the processing

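Of 171 values recomputed under alternatives, 133 stayed within the main value's counting interval (within 1.5 times for counts of genes), and 38 moved outside it. 7 ratios crossed 1, and in all 7 the main interval holds 1. They are the replication ratio of day 5 over steady state (1.02 without cells with dendritic cell markers, 1.03 with the larger sets described next), the mitosis ratio of day 5 over steady state with the larger sets, and the replication UMIs per mitosis UMI at steady state and day 5 with the larger sets and without Pcna and Birc5. No paired analysis was possible because each time point is 1 library. Depth limits the single genes, many of which rest on fewer than 10 UMIs, and no alternative measures the spread between animals.

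Without Pcna and Birc5 the replication ratios were 0.451 (day 1 over steady state) and 2.07 (day 5 over day 1), and the replication UMIs per mitosis UMI 0.957, 2.01 and 0.863 at steady state, day 1 and day 5. With Tk1 and 2810417H13Rik counted as replication genes and Stmn1 as a mitosis gene these were 0.641, 1.79 and 0.749, the replication ratio of day 5 over day 1 was 1.90, and the mitosis ratios 0.880 (day 5 over steady state) and 4.54 (day 5 over day 1). Without cells with monocyte markers the replication ratios were 0.752 and 1.33, the mitosis ratios 0.356 and 3.10, for day 1 over steady state and day 5 over day 1, and day 1 had 2.39 replication UMIs per mitosis UMI. Without cells with dendritic cell markers the mitosis ratios were 0.259 (day 1 over steady state) and 1.36 (day 5 over steady state), with 1.38 replication UMIs per mitosis UMI at steady state.

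The percent of cells with several replication genes at steady state, day 1 and day 5 was 4.40, 2.47 and 5.88 with a limit of 2 genes, and 0.313, 0.240 and 0.394 after thinning. On day 5 it was 1.12 with a limit of 4 genes. For mitosis genes it was 2.20, 0.609 and 3.11 with a limit of 2 genes. Of these only the day 5 value lay outside its main interval (1.64 to 2.97). The day 5 percent for mitosis genes was 1.46 after thinning. Without the 1 cell per library with the most mitosis UMIs the mitosis ratio of day 5 over steady state was 1.17 (1.01 to 1.36), so its interval no longer held 1. That cell held 40 of 272 mitosis UMIs at steady state and 56 of 965 on day 5. Leaving it out thus took a larger share from steady state.

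The number of genes at least 2-fold lower on day 1 than at steady state was 4 at a minimum of 20 CPM and 24 with no minimum, in place of 13. On day 5 against day 1, 19 were higher at 5 CPM, 5 at 20 CPM and 25 with no minimum, in place of 11. On day 5 against steady state, 5 were higher at 5 CPM and 5 with no minimum, and 4, 0 and 4 were lower at 5 CPM, 20 CPM and no minimum, in place of 2 each. Fewer genes pass a higher minimum by construction. The share over all genes was computed only at 10 CPM. The counts at other minimums thus have no background beside them and describe these genes alone. The cause of the other moves was not tested.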

Other observations

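Several genes outside the 32, chosen after their values were seen, were measured in the cells with at least 3 mitosis genes and in those with no mitosis gene. Cks1b, a small partner of the cyclin-dependent kinases, had a UMI in 9 of 12 and 12 of 678 cells at steady state, 4 of 9 and 95 of 2682 on day 1, and 32 of 46 and 66 of 1840 on day 5. Hmgb2, a chromatin protein, was at 1745 and 183 CPM at steady state, 724 and 131 CPM on day 1, and 1418 and 149 CPM on day 5. Tubb5, a tubulin, was at 2167 and 260 CPM, 494 and 207 CPM, and 1160 and 206 CPM in the same order. Tuba1b, another tubulin, was at 2723 and 430 CPM, 2666 and 458 CPM, and 1800 and 339 CPM. H2afz was at 4717 and 580 CPM, 2271 and 810 CPM, and 3829 and 1007 CPM. In all 3 libraries Cks1b was seen in a larger share of the cells with several mitosis genes, and the other genes had the higher level there. Because the genes were chosen on these values, this describes them only. The Cks1b shares are not thinned, and the cells with several mitosis genes were deeper.

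The inhibitor Cdkn1a was not absent from the cells with several mitosis genes. Cdkn1a was at 978 CPM (728 to 1286) in the 12 steady-state cells and 253 CPM (228 to 280) in the cells with no mitosis gene. It was at 592 CPM (351 to 936) and 627 CPM (610 to 646) on day 1, and at 359 CPM (276 to 458) and 444 CPM (425 to 463) on day 5. On both days the intervals overlap and do not by themselves give an order. Cdk4 was at 76.7 and 84.4 CPM at steady state. On day 1 it was at 263 CPM, from 8 UMIs (114 to 519), and 115 CPM (107 to 122), again with overlap, and on day 5 at 185 CPM (127 to 260) and 84.2 CPM (76.1 to 92.8).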
